A study of Mus musculus with 24 samples.

Results

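Ribosome biogenesis genes code for the proteins that make ribosomes and are not themselves part of the finished ribosome. The 57 genes described here were chosen by symbol, as genes of nucleolar processing, subunit assembly and RNA polymerase I. All 57 were found in both deposited results tables, among 19780 genes for control cells and 19979 for paused cells. The cells were mouse E14 embryonic stem cells, a line from the early embryo, grown on gelatin in serum with leukaemia inhibitory factor. They were wild type (WT) or came from 1 of 2 lines labelled as knockouts, Smad2 KO1 and Smad2 KO2, of Smad2, a transcription factor of the Nodal and activin pathway. How each line was made, and whether it is 1 clone, is not stated in the labels. Each genotype was kept for 12 h in control medium or with 200 nM INK128, which blocks the kinase mTOR and puts these cells into a paused state. Poly(A) RNA was sequenced in 24 libraries, 6 groups of 4. Nothing says that the 4 libraries of a group came from separate cultures, so the p-values measure the spread between these samples, which may be technical. Libraries of 1 line do not replicate a genotype, and differences between lines cannot be told apart from an effect of the knockout.

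Ribosomes are made in the nucleolus. RNA polymerase I copies the ribosomal DNA into a long precursor, small nucleolar ribonucleoproteins (snoRNPs) modify and fold it, and large assemblies cut it and add ribosomal proteins until the small (40S) and the large (60S) subunit can leave for the cytoplasm. The process takes up much of the energy of a growing cell, and mTOR signalling is known to promote it, from the transcription of ribosomal DNA to the translation of ribosomal proteins. Embryonic stem cells have prominent nucleoli and a high demand for ribosomes.

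The deposited values are results per gene, with a mean over libraries, a log2 change and its standard error (SE), and no value for a single library. Neither the values of single samples nor a comparison of INK128 with control medium inside 1 genotype could therefore be made, and the knockout lines were not separable. The tables do not name the numerator, and changes are read as knockout over wild type because Smad2 was lower in both. Smad2 fell by 0.35 in control cells per the authors' deposited table (SE 0.07, adjusted p 6.5e-06) and by 0.63 in paused cells per the authors' deposited table (SE 0.06, adjusted p 4.1e-26). Its transcript thus stood at 78.6% and 64.6% of wild type, so most of it remained in the libraries labelled as knockout. The difference between these changes was -0.28 (SE 0.09, adjusted p 0.0843). All 10 embryonic stem cell markers were present, with 3 higher and 2 lower in the knockout in each condition and summed levels of 5863 ppm (a gene's share of the table sum) in control and 5221 ppm in paused cells. Markers of primitive endoderm summed to 22.3 and 40.7 ppm, and 6 of 7 were higher in the knockout in each condition. Trophoblast markers summed to 166 and 180 ppm, with 4 of 7 higher and 1 lower in each, and fibroblast markers to 17.8 and 18.0 ppm, with Lum absent from both tables and Dcn from the paused table; 4 of 6 were lower in control and 3 of 5 in paused cells, and none was higher. Neuroectoderm markers summed to 67.7 and 64.0 ppm, with 2 of 5 higher and 3 lower in control cells and 1 higher and 3 lower in paused cells. The part of these markers in the changes below was not tested. In bulk RNA, fewer cells of a type and less RNA per cell cannot be told apart.

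In control cells many ribosome biogenesis genes fell in the Smad2 knockout, each by a small amount. Of the 57 genes, 32 fell, none rose and 25 did not pass an adjusted p of 0.05, where 21.9% of all genes and 34.7% of the 4848 genes at least as abundant as the lowest member fell. The latter are called equally abundant below, although they share only a floor and are not matched to the members in level. The change was below 0 for 53 of the 57, where 49.9% of all genes and 63.2% of the equally abundant ones were below 0. For rises the background was 19.5% of all genes and 15.9% of the equally abundant ones. In either direction 41.4% of all genes and 50.6% of the equally abundant ones passed. The median change was -0.17 on the log2 scale, or 88.6% of the wild-type level, against -0.06 for the equally abundant genes. Single changes ran from -0.43 for Nop16 to 0.11 for Polr1a, so no member was halved and none doubled. Against a null of up to 1.2-fold, 1 gene fell, beside 2.06% of the equally abundant genes, and with a statistic scaled so that its median size over all genes equals that of a standard normal (the scaled statistic), 0 fell, beside 0.536%. With the trend on mean count removed, 20 of 57 fell and 1 rose, the median was -0.10, and 20.5% of the equally abundant genes fell and 23.7% rose. With summed counts made equal between the genotypes (equal summed counts), 23 fell and 1 rose, beside 21.5% and 23.4%.

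In paused cells the median lay nearer to 0. Of the 57 genes, 25 fell, 1 rose (Bysl) and 31 did not pass, beside 22.0% of all genes and 33.2% of 6298 equally abundant genes that fell. For rises the background was 20.5% of all genes and 19.1% of the equally abundant ones. The change was below 0 for 43 of 57, beside 50.2% of all genes and 60.4% of the equally abundant ones, and the median of -0.06, or 95.9% of wild type, lay close to the -0.04 of the equally abundant genes. Under equal summed counts, 16 fell and 5 rose, beside 24.3% and 24.9% of the equally abundant genes, and the median was -0.03. With the trend on mean count removed, 15 fell and 5 rose, beside 22.5% and 25.7%, so under both settings the falls lay near the background and the rises below it. No member passed with the scaled statistic, where 1.17% of the equally abundant genes fell, or against a null of up to 1.2-fold, where 2.68% did.

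In both conditions 19 of the 57 genes fell (33.3%), where 16.0% of all genes and 25.3% of the equally abundant ones did. These 19 are 59.4% of the control falls and 76.0% of the paused falls; for the equally abundant genes these shares were 72.8% and 72.9%. Under equal summed counts 12 of the 19 kept both calls, and the same 12 did with the trend on mean count removed. Of the 1202 equally abundant genes that fell in both conditions, 718 and 673 kept both calls under these settings. The members of the 19 that lost a call were Bop1, Ddx21, Emg1, Nle1, Noc2l, Nolc1 and Nop2. A further 13 passed only the control test, 7 only the paused test (6 that fell and Bysl, which rose), and 18 neither. Across the 57 genes the control and the paused change were related (Pearson r 0.72, Spearman rho 0.64), and over 4757 equally abundant genes r was 0.88; genes within a table share libraries and are not independent. No member was called in opposite directions. A pass in 1 condition and not in the other does not show that the changes differ, which was tested separately.

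**Figure D1:**
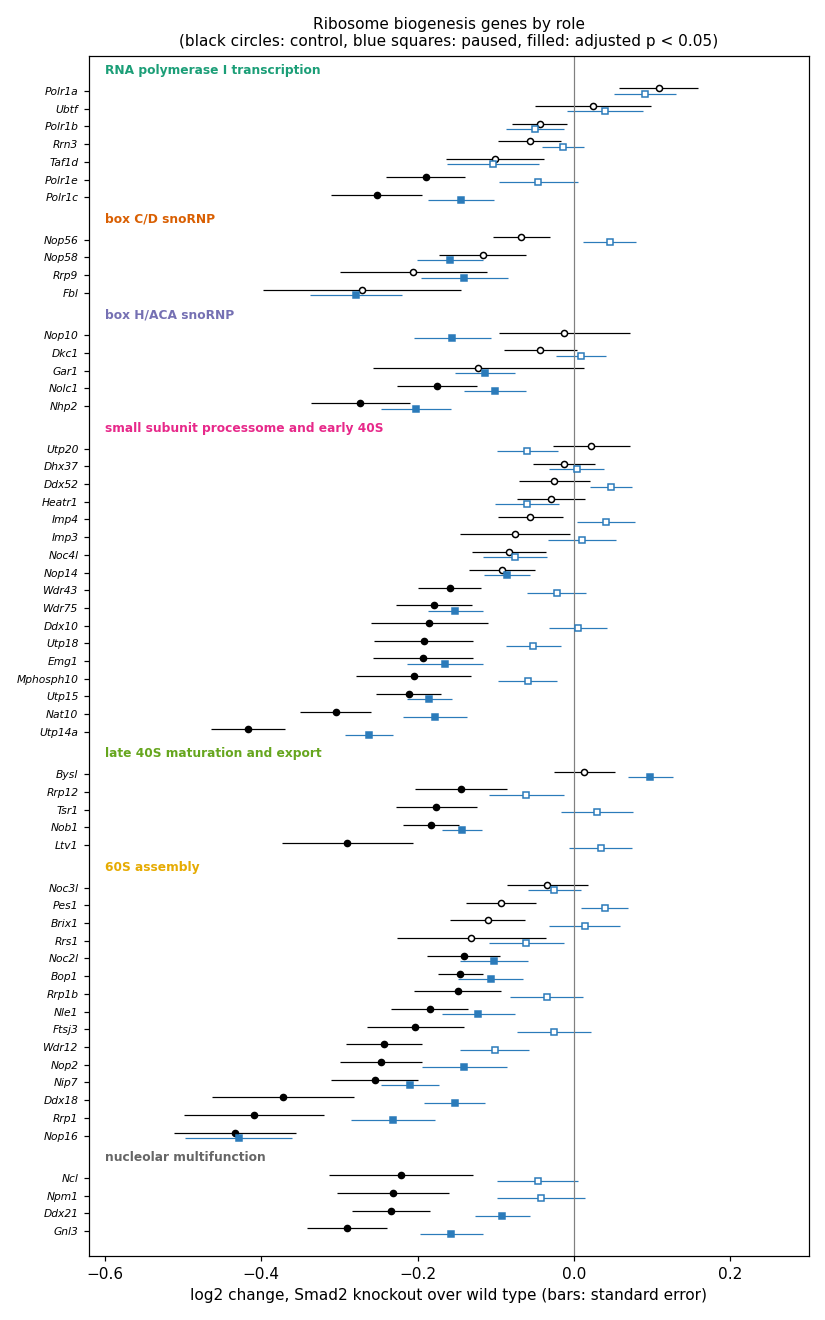
Log2 change of each of the 57 genes, Smad2 knockout over wild type, ordered by role and within a role by the control change. Black circles are control cells, blue squares paused cells, bars the standard error, and filled symbols have an adjusted p under 0.05. The 4 nucleolar multifunction genes are all filled in control cells, none of the 4 box C/D genes is, and Bysl is the 1 filled symbol right of 0.

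**Figure D2:**
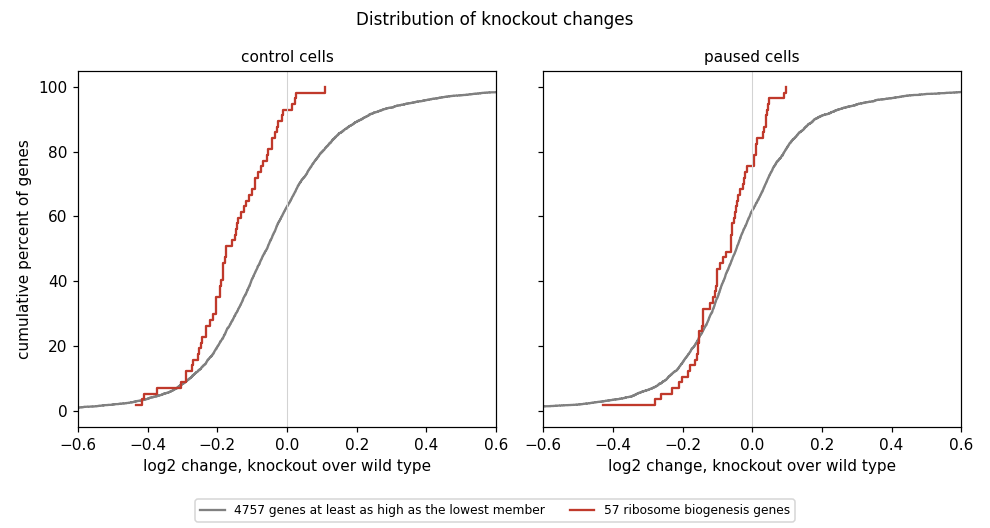
Cumulative percent of genes (vertical axis) against log2 change, knockout over wild type, for the 57 ribosome biogenesis genes (red) and for 4757 genes that are at least as abundant as the lowest member in both tables (grey). In control cells the red curve lies left of the grey one from about -0.3 upward, and in paused cells the curves cross between -0.2 and -0.1 and part above that.

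The genes of RNA polymerase I transcription, the first step, had the smallest median change of the 7 roles in control cells. There 2 of 7 fell, and 1 of 7 under pausing, with medians of -0.06 and -0.05. Polr1c, a subunit shared by RNA polymerases I and III, fell by 0.25 in control cells per the authors' deposited table (SE 0.06, adjusted p 8.62e-05, mean 7390 normalized counts). It fell by 0.14 in paused cells per the authors' deposited table (SE 0.04, adjusted p 0.00245). Polr1e, a polymerase-associated subunit, fell by 0.19 in control cells per the authors' deposited table (SE 0.05, adjusted p 0.000786) and was at -0.05 (SE 0.05, adjusted p 0.494) in paused cells. Polr1a, the largest catalytic subunit, was the member with the highest control change, at 0.11 (SE 0.05, adjusted p 0.0738) in the authors' deposited table, and stood at 0.09 (SE 0.04, adjusted p 0.0506) in paused cells. Under equal summed counts it passed as higher in both conditions (0.16 and 0.13). Ubtf, which binds ribosomal DNA and keeps it open, was at 0.02 in control and 0.04 in paused cells per the authors' deposited tables (SE 0.07 and 0.05). Rrn3, the initiation factor that joins the polymerase to the promoter, was at -0.06 and -0.01 per the authors' deposited tables (SE 0.04 and 0.03). Polr1b, the second largest subunit, and Taf1d, a subunit of the promoter selectivity factor, did not pass in either condition. In control cells the 7 genes ranged from 84.0% to 108% of wild type.

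Box C/D snoRNPs guide methylation of ribosomal RNA, and box H/ACA snoRNPs guide its pseudouridylation. Of the 4 box C/D proteins, 0 passed in control cells and 3 fell in paused cells, yet the medians were alike at -0.16 and -0.15. Fbl, the methyltransferase fibrillarin, had like values in both, -0.27 (SE 0.13, adjusted p 0.0722) and -0.28 (SE 0.06, adjusted p 1.55e-05) for control and paused cells per the authors' deposited tables. Its SE in control cells was larger than its SE in paused cells, and the difference between the changes was -0.01 (95% interval -0.28 to 0.27). Rrp9, which is specific to the U3 snoRNP, was at -0.21 (SE 0.09, adjusted p 0.0676) and -0.14 (SE 0.06, adjusted p 0.0299) per the authors' deposited tables. Nop58, a core protein, was at -0.12 (SE 0.06, adjusted p 0.076) and -0.16 (SE 0.04, adjusted p 0.000762) per the authors' deposited tables. Its partner in the core, Nop56, did not pass in either, at -0.07 and 0.05 per the authors' deposited tables (SE 0.04 and 0.03). For none of these 4 genes did the difference between conditions pass.

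Of the 5 box H/ACA genes, 2 fell in control and 4 in paused cells, with medians of -0.12 and -0.11. Nhp2, a core protein, fell by 0.27 in control cells per the authors' deposited table (SE 0.06, adjusted p 0.000101) and by 0.20 in that for paused cells (SE 0.04, adjusted p 4.55e-05). Nolc1, a nucleolar chaperone of snoRNPs, fell by 0.17 (SE 0.05, adjusted p 0.00249) and by 0.10 (SE 0.04, adjusted p 0.0292) per the authors' deposited tables. Nop10, the smallest core protein, was at -0.01 (SE 0.08, adjusted p 0.925) in control cells and fell by 0.16 (SE 0.05, adjusted p 0.00599) in paused cells per the authors' deposited tables. The difference of its changes was -0.14 (95% interval -0.33 to 0.05), the lowest of the 57. Gar1, also a core protein, fell in paused cells as well, and had a control SE of 0.14 in the authors' deposited table. Dkc1, the pseudouridine synthase dyskerin, was at -0.04 and 0.01 per the authors' deposited tables (SE 0.05 and 0.03) and passed in neither.

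The small subunit processome is the large assembly that folds and cuts the 5′ part of the precursor. Of its 17 members here, 9 fell in control and 6 in paused cells, with medians of -0.16 and -0.06. Utp14a, one of its late-acting components, had the smallest p of all 57 genes in both conditions. It fell by 0.42 in control cells per the authors' deposited table (SE 0.05, adjusted p 3.96e-17, mean normalized count 4923), to 74.9% of wild type. It fell by 0.26 in paused cells per the authors' deposited table (SE 0.03, adjusted p 4.63e-16, mean 5325), to 83.4%. Nat10, an RNA cytidine acetyltransferase, fell by 0.30 (SE 0.05, adjusted p 5.86e-10) and by 0.18 (SE 0.04, adjusted p 8.18e-05) per the authors' deposited tables. Utp15, which belongs to the early complex that links transcription to processing, fell by 0.21 (SE 0.04, adjusted p 2.74e-06) and by 0.18 (SE 0.03, adjusted p 2.81e-09) per the authors' deposited tables. Wdr75, of the same early complex, and Emg1, a methyltransferase, also fell in both conditions. Wdr43, Utp18, Mphosph10 and Ddx10 passed in control cells alone, and Nop14 in paused cells alone. Heatr1, the largest protein of the early complex, did not pass at -0.03 and -0.06 per the authors' deposited tables (SE 0.04 in each). Utp20, Imp3, Imp4, Noc4l, Ddx52 and Dhx37 did not pass in either condition either. Members of the early complex therefore spread from no call (Heatr1) to a fall in both conditions (Utp15).

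The 5 late 40S genes act on the nearly finished small subunit and its export. In control cells 4 fell, with a median of -0.18; in paused cells 1 fell and 1 rose, with a median of 0.03. Nob1, the nuclease that trims the end of the small-subunit RNA, fell by 0.18 (SE 0.04, adjusted p 2.73e-06) and by 0.14 (SE 0.03, adjusted p 3.25e-07) per the authors' deposited tables. Bysl, an assembly factor, was at 0.01 (SE 0.04, adjusted p 0.821) in control cells and rose by 0.10 (SE 0.03, adjusted p 0.00248) in paused cells per the authors' deposited tables. Rrp12, an export factor, fell in control cells alone. Tsr1, which resembles a GTPase and sits on the immature subunit, fell by 0.18 (SE 0.05, adjusted p 0.00287) in control cells and was at 0.03 (SE 0.05, adjusted p 0.641) in paused cells per the authors' deposited tables. Its exons overlap those of Srr on the opposite strand over 1240 of 3837 bases; how the counting used strand is not given in the sources used here.

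Ltv1, which helps to assemble the head of the 40S subunit before export, was the 1 member whose change differed between the conditions. It fell by 0.29 in control cells per the authors' deposited table (SE 0.08, adjusted p 0.00232, mean normalized count 5476), to 81.8% of wild type. Per the authors' deposited table, in paused cells it was at 0.03 (SE 0.04, adjusted p 0.52, mean 4770.2). The paused change minus the control change was 0.32 (SE 0.09, adjusted p 0.0389 over 19134 genes, 95% interval 0.14 to 0.51). Of all genes 1.44% differed in either direction and 0.716% upward; of the equally abundant ones, 2.52% differed and 1.22% upward. The call was lost under equal summed counts, with the trend on mean count removed and with the scaled statistic. Ltv1 lies at chr10:13178140-13193168 on the minus strand (GRCm38, the mm10 assembly, GENCODE M21).

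The other 56 members did not pass the test of the difference. Of the 57 differences 49 were above 0 and 8 below, where 48.7% of all genes and 45.3% of the equally abundant ones were below 0. The median was 0.07, against 0.01 for the equally abundant genes. These signs are a description, without a test over the group. The nucleolar multifunction, 60S and late 40S genes were above 0 in every case, with medians of 0.16, 0.11 and 0.08, and the RNA polymerase I genes had the lowest median, 0.02. After Ltv1 the smallest p-values were those of Tsr1 at 0.20 (SE 0.07, adjusted p 0.109) and Utp14a at 0.15 (SE 0.06, adjusted p 0.151). For Nop16 the difference was 0.00 (95% interval -0.20 to 0.21).

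**Figure D3:**
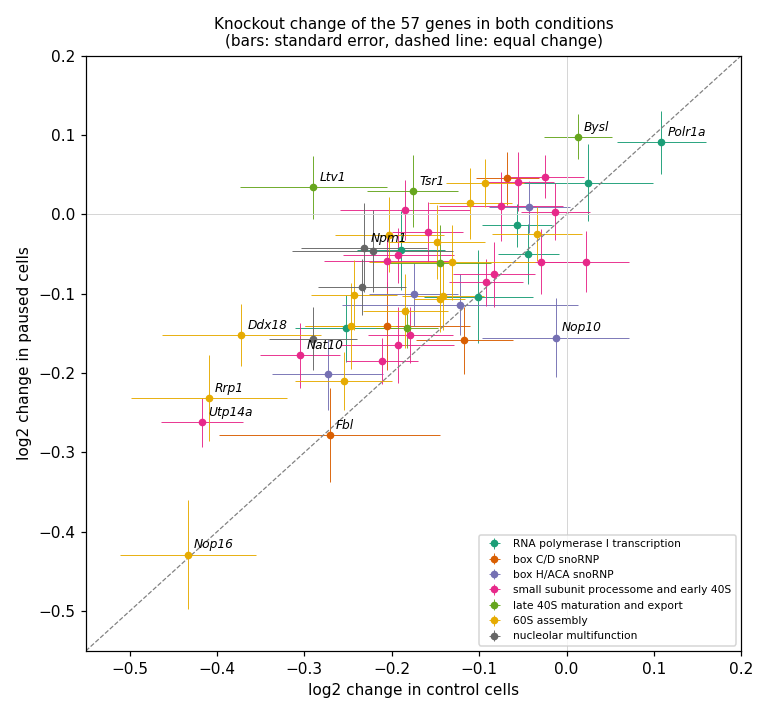
Log2 change in paused cells (vertical axis) against log2 change in control cells (horizontal axis) for the 57 genes, knockout over wild type, coloured by role, with bars for the standard error and a dashed line of equal change. Most points lie above the line; Ltv1 lies farthest above it, Nop16 on it at -0.43, and Nop10 below it.

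The 60S group, which assembles the large subunit, had the lowest change of the 57 in each condition. Of 15 genes, 11 fell in control and 8 in paused cells; their medians were -0.18 and -0.10. Nop16, a nucleolar protein of the early 60S particle, was that gene. It fell by 0.43 in control cells per the authors' deposited table (SE 0.08, adjusted p 3.19e-07, mean normalized count 3586), to 74.1% of wild type. It fell by 0.43 in paused cells too, per the authors' deposited table (SE 0.07, adjusted p 4.49e-09, mean 1284), to 74.3%. Rrp1, an early 60S factor, fell by 0.41 (SE 0.09, adjusted p 3.28e-05, mean 8270.3) in control cells per the authors' deposited table and by 0.23 (SE 0.05, adjusted p 9.78e-05) in that for paused cells. Its paralog Rrp1b fell in control cells alone, by 0.15 (SE 0.06, adjusted p 0.0213) in the authors' deposited table. In control cells Nop16, Rrp1 and Utp14a fell by at least 1.3-fold, and in paused cells Nop16 did. Such a fall was found for 8.84% of all genes and 4.35% of the equally abundant ones in control cells, and by 7.83% and 4.10% in paused cells.

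Ddx18, an RNA helicase, fell by 0.37 (SE 0.09, adjusted p 0.000239) and by 0.15 (SE 0.04, adjusted p 0.000408) per the authors' deposited tables, but its value is uncertain. Of its 50-base stretches 55.9% also occur in transcripts of genes elsewhere, chiefly processed pseudogenes. The PeBoW complex joins Pes1, Bop1 and Wdr12 and is needed to cut the spacer ahead of the large-subunit RNA. Bop1 fell by 0.15 (SE 0.03, adjusted p 4.96e-06) and by 0.11 (SE 0.04, adjusted p 0.0283) per the authors' deposited tables. Wdr12 fell by 0.24 (SE 0.05, adjusted p 6.22e-06) in control cells and was at -0.10 (SE 0.04, adjusted p 0.0504) in paused cells per the authors' deposited tables. Pes1 did not pass at -0.09 (SE 0.04, adjusted p 0.0812) and 0.04 (SE 0.03, adjusted p 0.295) per the authors' deposited tables. The members of this complex thus had unequal changes, and their differences from each other were not tested. Nip7, Nop2, Nle1 and Noc2l fell in both conditions and Ftsj3 in control cells alone. The paused calls of Nop2, Nle1 and Noc2l were lost at an adjusted p under 0.01, under equal summed counts and with the trend on mean count removed. Under the last setting the control calls of Noc2l and Ftsj3 were lost too, and that of Noc2l also under equal summed counts. Nip7 kept both calls under these settings. Rrs1, Brix1 and Noc3l passed in neither.

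Nucleolar proteins with several roles were a group of 4. All 4 fell in control cells, with a median of -0.23, and 2 fell under pausing, with a median of -0.07. Gnl3, or nucleostemin, a GTP-binding protein enriched in stem cells, fell by 0.29 (SE 0.05, adjusted p 1.36e-07) and by 0.16 (SE 0.04, adjusted p 0.000403) per the authors' deposited tables. Ddx21, a helicase, fell by 0.23 (SE 0.05, adjusted p 2.28e-05) and by 0.09 (SE 0.04, adjusted p 0.026) per the authors' deposited tables. Npm1, the nucleolar chaperone nucleophosmin, fell by 0.23 (SE 0.07, adjusted p 0.00461) in control cells and was at -0.04 (SE 0.06, adjusted p 0.58) in paused cells per the authors' deposited tables. Ncl, or nucleolin, an RNA-binding histone chaperone, fell by 0.22 (SE 0.09, adjusted p 0.0404) in control cells and was at -0.05 (SE 0.05, adjusted p 0.5) in paused cells per the authors' deposited tables. The Npm1 call was lost with the trend on GC content and length or that on mean count removed. The Ncl call was lost at an adjusted p under 0.01, under equal summed counts and with the trend on mean count removed. Npm1 and Ncl were also the most abundant of the 57 genes per length.

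Sequences that are shared with other genes touch 5 members. Over 10% of the distinct 50-base stretches in a gene's annotated transcripts occur elsewhere for Ddx18, Npm1 (24.3%), Pes1 (20.4%), Fbl (19.0%) and Nop56 (16.5%). Reads of these genes could thus be split with pseudogene copies. Without these 5 genes, 30 of 52 fell in control and 23 of 52 in paused cells, the medians being -0.17 and -0.07. Exons of 21 members overlap a gene on the opposite strand, for 3 of them over 10% of the exon length: Tsr1, Noc2l (598 of 2867 bases) and Utp14a (473 of 4130 bases), whose values carry the same limit on strand.

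The wider pathway was described through 99 other ribosome biogenesis genes, of which 95 were in the tables. In control cells 56 fell and 2 rose, with a median of -0.15, where 21.9% of all genes fell, and 34.7% of those at least as abundant as the lowest of the 57, a floor that not all of the 95 reach; 19.5% and 15.9% of these rose. In paused cells 27 fell and 10 rose, with a median of -0.05, where 22.0% and 33.2% fell and 20.5% and 19.1% rose. The steepest control falls were those of Polr1d, a small polymerase I and III subunit (-0.45, SE 0.11), Rrp8, a methyltransferase (-0.39, SE 0.07), and Naf1, a box H/ACA assembly factor (-0.38, SE 0.05), all in the authors' deposited table. The steepest paused falls per the authors' deposited table belonged to Naf1 (-0.41, SE 0.05), Rpf2, a 5S particle assembly factor (-0.38, SE 0.05), and Rrp8 (-0.27, SE 0.05). Senp3, a nucleolar SUMO protease, rose by 0.22 (SE 0.05) and 0.36 (SE 0.03) per the authors' deposited tables. The other rises named by size were those of Ttf1, the polymerase I terminator factor, in control cells (0.12, SE 0.05), and of Utp6 (0.25, SE 0.04) and Bud23 (0.16, SE 0.04) in paused cells, per the authors' deposited tables. The change differed between conditions for 5 of the 95, all upward in paused cells: Taf1a, Tbl3, Bud23, Nol9 and Las1l. Upward differences were called for 0.716% of all genes and 1.22% of the equally abundant ones. In the test of the difference, the adjusted p-values of the 5 ran from 0.000357 for Nol9 to 0.0361 for Bud23. Of the 95 differences 16 were below 0, beside 48.7% of all genes and 45.3% of the equally abundant ones, and the median was 0.09.

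Levels were then set side by side without a test, since each condition has its own table and no value per library. The tables are taken as normalized separately, with each mean over the libraries of its own condition, which the sources used here do not state. Per kilobase of merged exons, the median level of the 57 genes was 46.4 ppm in control and 42.1 ppm in paused cells. Npm1 was highest per kilobase, at 1345 and 1394 ppm, followed by Ncl at 345 and 290.4 ppm; Wdr12 was lowest, at 9.24 and 7.97 ppm. The ratio of the paused to the control level had a median of 0.958 and was under 1 for 32 genes, beside a median of 0.995 and 50.8% under 1 for the equally abundant genes. Scaled to the median gene instead of the table sum, the ratio was under 1 for 47 genes, with a median of 0.877, beside 63.2% and 0.911 for the equally abundant genes. The lowest ratios were those of Nop16 (0.372), Nop10 (0.381), Nip7 (0.533), Nhp2 (0.561), Emg1 (0.607), Bop1 (0.636) and Fbl (0.656). These 7 genes at or under 0.67 are 12.3% of the 57, beside 11.3% of the equally abundant genes and 14.3% of all genes. The highest ratios were those of Utp18 and Tsr1 (1.28 each).

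By role, the paused level was lowest against control for the box H/ACA genes, with a median ratio of 0.695 and all 5 under 1, and for the box C/D genes, with 0.784. The median was 0.852 for the 60S group, 0.927 for the multifunction genes and between 1.00 and 1.02 for the processome, late 40S and polymerase I groups. Scaled to the median gene, these last 3 medians were below 1, at 0.931, 0.917 and 0.935. Some genes with a short merged exon length had low ratios, such as Nop10 (1109 bases) and Nhp2 (1146 bases). Imp3 (924 bases) and Gar1 (1714 bases) were at 0.910 and 0.976, while the low ratios of Emg1 and Fbl went with 4632 and 4209 bases. Over the 57 genes the log2 ratio and the log2 exon length had a Pearson r of 0.31 (Spearman rho 0.13), and over 4608 equally abundant genes r was 0.37 (rho 0.38). The part of transcript length in the ratios was not tested.

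**Figure D4:**
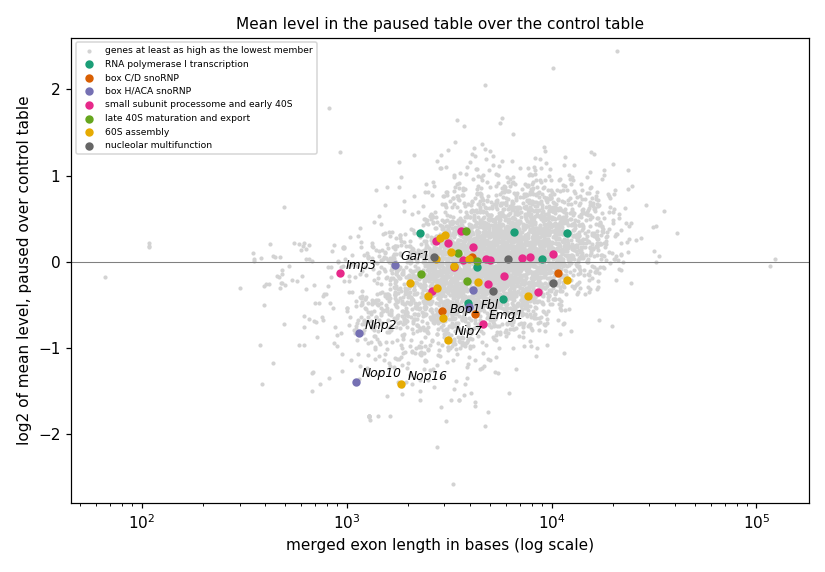
Log2 ratio of the mean level in the paused table to that in the control table (vertical axis) against merged exon length in bases (horizontal axis, log scale), for the 57 genes coloured by role and for equally abundant genes in grey. Nop16 and Nop10 lie lowest among the coloured points, and the grey cloud rises with length.

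Shared features of the genes themselves were described from the annotation and from RefSeq. Small nucleolar RNAs, many of which are encoded in introns of host genes, lay inside 8 of the 57 genes (14.0%) against 155 of 4532 equally abundant protein-coding genes (3.42%). The hosts are Ncl, Nop56, Nop58, Dkc1, Wdr43, Tsr1, Taf1d and Gnl3, with 29 such RNAs. Of the 8 hosts 4 fell in control and 2 in paused cells, at medians of -0.14 and -0.03. Of the other 49 genes 28 and 23 fell, with medians of -0.18 and -0.08. Among all equally abundant genes 34.7% fell in control and 33.2% in paused cells, with medians of -0.06 and -0.04. The contrast of hosts with the other members was not tested.

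Promoters from RefSeq (GRCm38.p6, 250 bases before to 50 after the start) were at hand for 52 of the 57. The E-box CACGTG, a motif that MYC and related factors can bind and that reads the same on both strands, was in 10 of 52 (19.2%), in 8.09% of 27025 genes and in 13.3% of 3659 equally abundant protein-coding genes. CCGGAAGT, the motif of ETS-family factors, on either strand (ACTTCCGG), was in 13 of the 52, in 4.31% of all genes and in 11.2% of the equally abundant ones. The palindrome GTCTAGAC, which SMAD proteins can bind, was in 0 of 52, 0.248% of all and 0.219% of the equally abundant genes, and AAGATGGC, the YY1 motif, on either strand (GCCATCTT), in 2 of 52 (3.85%), 3.19% and 7.43%. The GC box GGGCGG, on either strand (CCGCCC), was in 37 (71.2%), in 38.2% of all genes and in 74.7% of the equally abundant ones. Such matches describe letters in a window and not bound sites.

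Members with and without the E-box had like control changes, with medians of -0.17 (10 genes) and -0.18 (42 genes). In paused cells the medians were -0.02 and -0.10. Of 11 E-boxes, 6 begin within the first 50 bases from the RefSeq start, those of Ltv1 and Tsr1 among them. Gene starts in GENCODE differ from these for some genes, such as Ltv1 and Wdr43. Windows of 30 bases on the gene's strand, with the E-box in capitals, are printed for 6 genes to show the common core and the unlike flanks. The window of Ltv1 is at chr10:13193092-13193121 (minus strand), of Tsr1 at chr11:74898092-74898121 (plus), of Nle1 at chr11:82908355-82908384 (minus), of Pes1 at chr11:3963965-3963994 (plus), of Nop2 at chr6:125131811-125131840 (plus) and of Rrn3 at chr16:13780639-13780668 (plus).
Ltv1: gccctgtggaccCACGTGtggagctgccgg
Tsr1: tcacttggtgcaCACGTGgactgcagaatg
Nle1: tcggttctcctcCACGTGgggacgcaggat
Pes1: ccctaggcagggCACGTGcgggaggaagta
Nop2: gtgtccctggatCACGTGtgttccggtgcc
Rrn3: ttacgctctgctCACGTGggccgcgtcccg

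The ETS motif lay near the start in several members, and 3 genes, Ltv1, Tsr1 and Rrn3, hold both motifs. Windows of 30 bases on the gene's strand, with the ETS motif or its reverse complement in capitals, are printed for 5 genes: Ltv1 at chr10:13193175-13193204 (minus strand), Tsr1 at chr11:74898068-74898097 (plus), Rrn3 at chr16:13780682-13780711 (plus), Nhp2 at chr11:51619739-51619768 (plus) and Polr1c at chr17:46248069-46248098 (minus).
Ltv1: gggctcacgcaACTTCCGGctacagcctag
Tsr1: ctcgggtccgcCCGGAAGTagagttcactt
Rrn3: tctgcagcgccACTTCCGGggcgggtaggt
Nhp2: cacttgaaaacCCGGAAGTgatgtcggagg
Polr1c: ccacttgacgtCCGGAAGTgaaggacgtgg

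Nop16 and Utp14a, the members with the lowest control changes, hold neither motif in the stretch upstream of the annotated gene. Their upstream bases are shown for comparison, with GC boxes and the CCAAT box in capitals. That of Nop16 is 234 bases at chr13:54590091-54590324 (minus strand, 56.0% G or C) and holds 1 GC box, and that of Utp14a is 178 bases at chrX:48256684-48256861 (plus strand, 58.4% G or C) and holds 1 GC box and 1 CCAAT.
Nop16: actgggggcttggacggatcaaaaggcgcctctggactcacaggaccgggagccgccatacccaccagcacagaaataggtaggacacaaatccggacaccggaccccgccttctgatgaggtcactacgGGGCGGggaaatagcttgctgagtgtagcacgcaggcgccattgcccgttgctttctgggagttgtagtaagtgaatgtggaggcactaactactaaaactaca
Utp14a: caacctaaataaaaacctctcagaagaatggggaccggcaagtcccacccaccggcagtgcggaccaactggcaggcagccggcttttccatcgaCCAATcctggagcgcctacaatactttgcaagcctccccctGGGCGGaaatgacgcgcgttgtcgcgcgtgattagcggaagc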

How the data were processed

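Poly(A) RNA of 24 libraries was grouped by genotype and treatment from the titles. Per the submitters' processing notes, which give no versions, FastQC, Trim Galore, HISAT2, featureCounts and DESeq2 were used with the mm10 build; annotation, strand use and the libraries in each fit are not given in the sources used here. The authors deposited 2 results tables. Per the file headers they hold the mean normalized count, which is a signal averaged over libraries, a log2 change with its SE on the log2 scale, a Wald statistic (a score), and a p-value with its adjusted p-value. The deposited score was the change over its SE for every gene, and the adjusted p-values were checked to be Benjamini-Hochberg values over the table.

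Called means an adjusted p under 0.05 in the authors' DESeq2 test. The count tests on single libraries first planned could not be run, as the tables hold results. The difference between conditions was the paused minus the control change over the root of the summed squared SEs, with a two-sided normal p adjusted over 19134 genes in both tables; it was tested on simulated data. Equally abundant genes are those with a mean at least that of the lowest member. This is a floor and not a match in level, set by Imp3 (1966) in control and by Nop16 (1284) in paused cells. Where both conditions enter, both floors apply. Depth per library is unknown, and the SEs are the measure of precision. Lengths, coordinates and overlaps are from GENCODE M21 (GRCm38), and promoters from RefSeq. Shared stretches were counted with 50-mers over all GENCODE M21 transcripts of each member. Alternatives were an adjusted p under 0.01, tests against 1.2-fold, a 1.5-fold minimum, a scaled statistic, 2 other scalings, a minimum of 5 ppm, removal of trends on GC content with length and on mean count (50 bins) and, added after seeing the data, members with shared stretches left out.

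Named members are those called and changed at least 1.3-fold, the 1 called for the difference, the 3 called with the largest change per role, and 12 well-known ones; of the wider list, the 3 steepest falls and rises per table; markers are given as lists. The members and lists were chosen with earlier results of these data known. Python 3.11.15, numpy 2.4.6, pandas 2.3.3 and scipy 1.17.1 were used.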

Additional observations from a re-analysis of the deposited data

Results flagged for a closer look

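The knockout change differed between control and paused cells, by the test of the difference, for 1 of the 57 genes and for 5 of 95 other ribosome biogenesis genes, where 1.44% of all genes and 2.52% of the equally abundant ones differed. In each the paused change was the higher one, as it was for 0.716% of all genes and 1.22% of the equally abundant ones. For Ltv1 the paused minus the control change was 0.32, a call that was lost under 6 of the alternatives. For Taf1a, a subunit of the polymerase I selectivity factor, it was 0.31 (-0.29 in control and 0.01 in paused cells, per the authors' deposited tables). For Las1l, a factor of precursor cutting, it was 0.29 (-0.19 and 0.10 in the authors' deposited tables). For Tbl3, of the small subunit processome, it was 0.28 (-0.14 and 0.14 in the authors' deposited tables). For Nol9, an RNA kinase that works with Las1l, it was 0.24 (-0.15 and 0.09 in the authors' deposited tables). For Bud23, a methyltransferase of the small-subunit RNA, it was 0.21 (-0.06 and 0.16 in the authors' deposited tables).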

How the results depend on the processing

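No paired analysis was possible because the tables hold no values for single libraries, and leaving out each replicate was not run for the same reason. Of 57 genes, 32 fell in control cells; the count was 1 when tested against 1.2-fold, 0 with a 1.5-fold minimum (1.16% of the equally abundant genes), 0 with the statistic divided by its middle spread (2.76) and 20 with the trend on mean count removed. In control cells 1 gene, Polr1a, rose under equal summed counts (0.16) and 1 with the mean-count trend removed (0.16), and the median of -0.17 became -0.12 and -0.10; the paused median of -0.06 became -0.03 and -0.04. Of 57 genes, 25 fell in paused cells; the count was 0 under the tests of 1.2-fold, the 1.5-fold minimum and the scaled statistic (middle spread 2.80), 16 under equal summed counts and 15 with the mean-count trend removed. The 1 gene that rose in paused cells became 0, 0 and 0 under those first 3 settings, 5 under equal summed counts, 2 with the median change at 0, 2 with the 5 ppm minimum, 4 with the GC and length trend removed and 5 with the mean-count trend removed; 24.9%, 19.4%, 19.7%, 20.9% and 25.7% of the equally abundant genes rose there. The 1 difference became 0 at an adjusted p under 0.01, against 1.2-fold, with the 1.5-fold minimum, with the scaled statistic (1.23), under equal summed counts and with the mean-count trend removed. Calls were lost under 7 of 9 alternatives for Rrp12, Mphosph10 and Ddx10 in control cells and for Rrp9 and Nle1 in paused cells. Removal of the GC and length trend was among the 7 for each. Among the genes named with values, the sign turned for some, none of which had passed: under equal summed counts Dkc1 (0.0124) and Heatr1 (0.0257) in control cells, Rrn3 (0.0214) in paused cells, and Ubtf (-0.00444) for the difference. With the GC and length trend removed they were Npm1 (0.0156) and Rrn3 (0.0154) in paused cells, and Fbl (0.00731), Polr1a (0.00502) and Ubtf (-0.00492) for the difference. With the mean-count trend removed they were Nop56 (0.0188), Dkc1 (0.021), Rrn3 (0.000792) and Heatr1 (0.038) in control cells, Ncl (0.014), Npm1 (0.0181) and Rrn3 (0.0147) in paused cells, and Ubtf (-0.00219) for the difference. The cause of these shifts was not tested. Under equal summed counts the shifts were -0.06 and -0.04 and assume that all libraries of a condition entered the tables; the sign of the medians held under each setting.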
